A study of Rattus norvegicus with 12 samples.

Results

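Cells kept in high glucose and given resveratrol together with a sirtuin inhibitor were compared with cells in high glucose alone. The comparison took 6 of the 12 libraries of the series, chosen by their labels: 3 of the group HG-Res-SIRT7-Inh and 3 of the group HG. HG cells were grown for 48 h in medium with 100 mM D-glucose and no drug. HG-Res-SIRT7-Inh cells were grown for the same time in 100 mM D-glucose with resveratrol (5 µM) and, also at 5 µM, an agent that the labels call a SIRT7 inhibitor and name SirReal2. Of the other groups, HG-Res (100 mM glucose with 5 µM resveratrol) gave levels set beside these and entered 1 alternative fit. Ctrl (5.5 mM glucose) was not used. The 2 groups compared differ in both compounds at once, so the part of each compound cannot be told apart in this contrast. All groups carry the same label for cell line and genotype, H9C2 and wild type.

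Resveratrol is a polyphenol of grapes and other plants that is widely studied as a stimulator of sirtuins. Sirtuins are enzymes that remove acetyl and related groups from lysines of histones and other proteins and consume NAD in doing so. SIRT7 is found mainly in the nucleolus, and SirReal2 is best known as a selective inhibitor of another family member, SIRT2. H9C2 is a myoblast line from embryonic rat heart that is often used as a stand-in for cardiomyocytes, although it does not beat.

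The identifiers conflict with that label. All 20263 rows carry Ensembl identifiers with the human prefix, while the labels give rat and the submitters' processing notes give build rn6. Of these identifiers 0 occurred in the rat gene table used here, which their human prefix alone would give, whatever the RNA was. No deposited file gives gene names beside the identifiers, so genes are given by identifier only, no gene group or cell type marker was examined, and the labelled cell type was not checked. No sequence is shown, for the same reason. Whether the values stem from rat or human RNA was not tested.

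Levels are in CPM, which sets the total of every library to 1000000 reads and takes no account of gene length. The file headers call the values TPM, but below 0.5 CPM each of the 6 libraries held only 14 to 16 different values over all genes, all on multiples of 1 step of 0.03 to 0.0331 CPM within the rounding of 0.005. Of the 20263 rows, 12726 (62.8%) reached 0.5 CPM in at least 3 of the 6 libraries and were tested, and 7537 did not. Between 11916 and 12002 genes reached 1 CPM in each of the 6 libraries. Reads of the 10 top genes made up 6.62% to 7.87% of each library. The libraries were not equally close to their group: the median SD between replicates, on the log2(CPM + 1) scale, was 0.132 in HG and 0.243 in HG-Res-SIRT7-Inh. The labels call the replicates biological, and p-values set the group difference against the spread between them. The main fit took 1 spread per gene for both groups.

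With all 6 libraries weighted equally, more genes passed as lower than as higher after the combined treatment, a balance that turned in some settings. With limma at a Benjamini-Hochberg adjusted p of 0.05, 423 genes passed, 3.32% of those tested. Of these 314 fell (2.47% of tested genes) and 109 rose (0.857%). In each of the 423 the 3 treated libraries lay wholly above or wholly below the 3 HG libraries, but this held for 3573 tested genes in all, 28.1%, most of which did not pass. At an unadjusted p of 0.05 the directions were closer to even, with 1194 genes higher and 1323 lower. Rises outnumbered falls with library weights (3533 and 2756), without replicate 2 of HG and replicate 3 of HG-Res-SIRT7-Inh (1323 and 1235), and in the marks of the authors' deposited table (889 and 776). The median change over all tested genes was 0.039 on the log2 scale.

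Among the 423 genes the falls were the larger changes on the log2(CPM + 1) scale. Genes that fell had a median log2 change of 0.93 in size (quartiles 0.731 and 1.22), and those that rose 0.78 (quartiles 0.66 and 0.906). A change of at least 2-fold on the log2(CPM + 1) scale was reached by 127 fallen and 18 risen genes. At 4-fold or more on that scale there were 17 fallen genes and 0 risen ones, the largest rise being 1.53. These sizes describe genes that had passed the test, and the added 1 CPM makes the change of low genes look smaller than it was. With 0.1 CPM added in place of 1, the rise of ENSG00000054356 went from 1.53 to 2.2, which is above 4-fold. The fall of ENSG00000114812 went from -3.28 to -4.35.

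**Figure D1:**
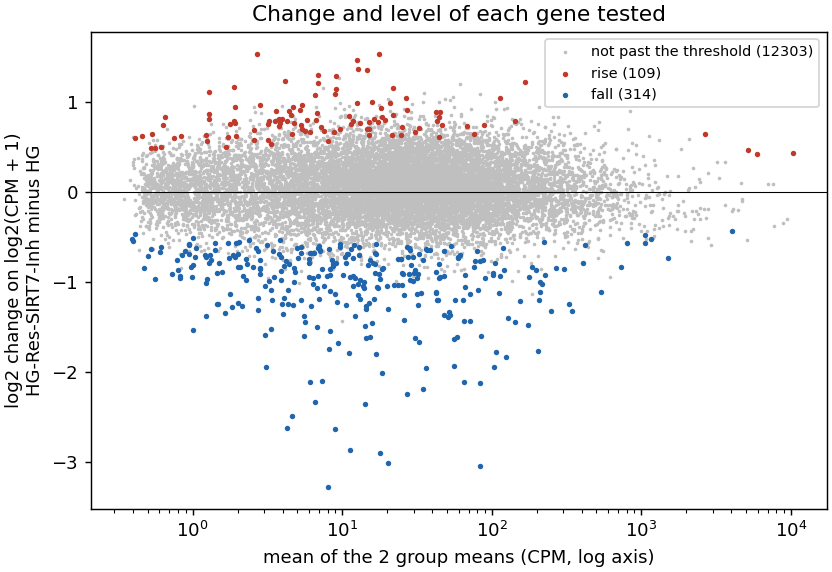
Each point is 1 of the 12726 tested genes: the x axis is the mean of both group means in CPM (log axis), the y axis the log2 change of HG-Res-SIRT7-Inh against HG. On the log2(CPM + 1) scale the 109 risen genes stay at or below 1.53, while the 314 fallen genes reach down to -3.28.

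The 2 identifiers with the largest falls were ENSG00000114812 and ENSG00000164761. ENSG00000114812 stood at 14.7, 15.9 and 15.1 CPM in the HG libraries and at 0.94, 0.39 and 0.73 CPM in the HG-Res-SIRT7-Inh libraries. All 3 treated libraries were below 1 CPM and far from the HG range. The group means were 15.3 ± 0.643 and 0.687 ± 0.278 CPM (SD, n = 3), a ratio of 22.2, and limma gave a change of -3.28 ± 0.15 on the log2 scale (SE, adjusted p = 0.000116). With resveratrol alone the libraries held 2.74, 2.66 and 2.95 CPM, between both groups.

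ENSG00000164761 was the more abundant of the pair, with 156, 140 and 154 CPM in HG and 16.4, 15.1 and 20.6 CPM in HG-Res-SIRT7-Inh. The lowest HG library was several times the highest treated one. The means were 150 ± 8.39 and 17.4 ± 2.86 CPM (SD, n = 3), 8.62 times apart, and limma gave -3.05 ± 0.15 on the log2 scale (SE, adjusted p = 0.000155). The HG-Res libraries, at 82.5, 90 and 83.3 CPM, lay between the groups and overlapped neither.

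The 2 identifiers with the largest rises were ENSG00000107796 and ENSG00000054356. ENSG00000107796 was at 8.11, 7.81 and 9.48 CPM in HG and at 30.6, 26.5 and 22.4 CPM in HG-Res-SIRT7-Inh. The treated libraries were all higher but spread more widely. Its means were 8.47 ± 0.89 and 26.5 ± 4.12 CPM (SD, n = 3), a ratio of 3.13, and limma gave 1.53 ± 0.16 on the log2 scale (SE, adjusted p = 0.00313). HG-Res libraries stood at 10.8, 11.9 and 11.3 CPM, nearer to HG than to the combined treatment.

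ENSG00000054356 was a low gene in HG, at 0.79, 0.99 and 0.87 CPM, and reached 5.85, 4.59 and 3.17 CPM in HG-Res-SIRT7-Inh. Its treated values did not overlap those of HG, a condition of its choice, and the lowest of them was in replicate 3. The means were 0.883 ± 0.101 and 4.54 ± 1.34 CPM (SD, n = 3), a ratio of 5.14, and limma gave 1.53 ± 0.18 on the log2 scale (SE, adjusted p = 0.00597). Without HG-Res-SIRT7-Inh replicate 2 the change was 1.51 and the limma adjusted p 0.0545, so the call then ended. The HG-Res libraries held 1.37, 1.2 and 0.97 CPM, the lowest of which was under the highest HG value.

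**Figure D2:**
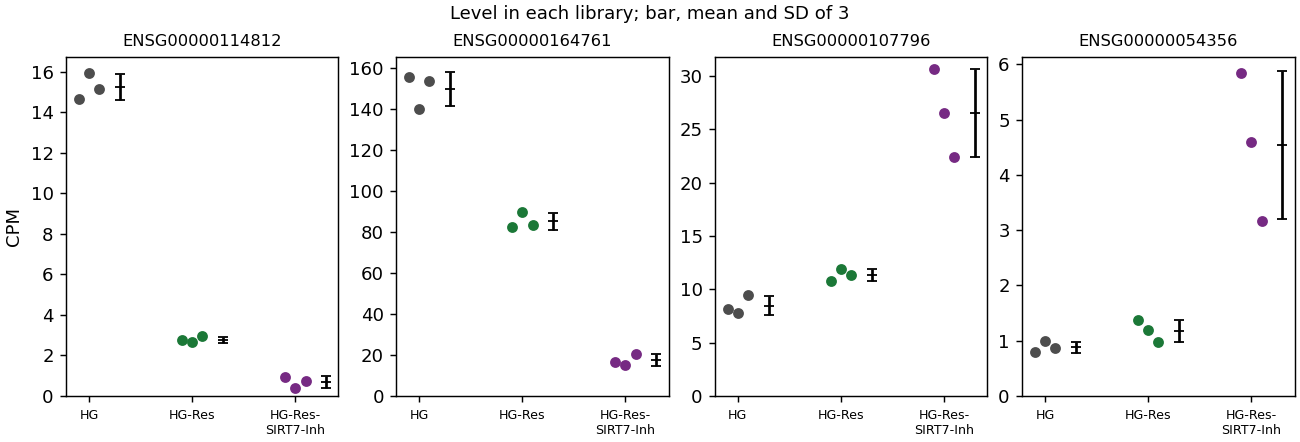
CPM (linear axes from 0) of the 4 identifiers in each of the 3 libraries per high-glucose group, with the mean and SD beside the points. In all 4 the HG-Res-SIRT7-Inh points lie apart from the HG points, which was a condition of their choice. HG-Res means lie between.

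The levels of the called genes are given as a description, since choosing genes that fell from HG favours high HG values and choosing risen genes favours low ones. The median fallen gene had a mean of 15.9 CPM in HG and the median risen gene 4.51 CPM. In HG-Res-SIRT7-Inh the order was the reverse, at 7.26 and 9.29 CPM, and in HG-Res 13.4 and 6.09 CPM. By mean level over the 6 libraries, the share of tested genes that fell was 2.83% up to 1 CPM, 4% from 1 to 3, 3.77% from 3 to 10, 2.36% from 10 to 30, 1.54% from 30 to 100 and 1.92% above 100 CPM. The share that rose was 1.35%, 1.42%, 1.81%, 0.861%, 0.308% and 0.344% in the same order. Falls outnumbered rises at every one of these levels.

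**Figure D3:**
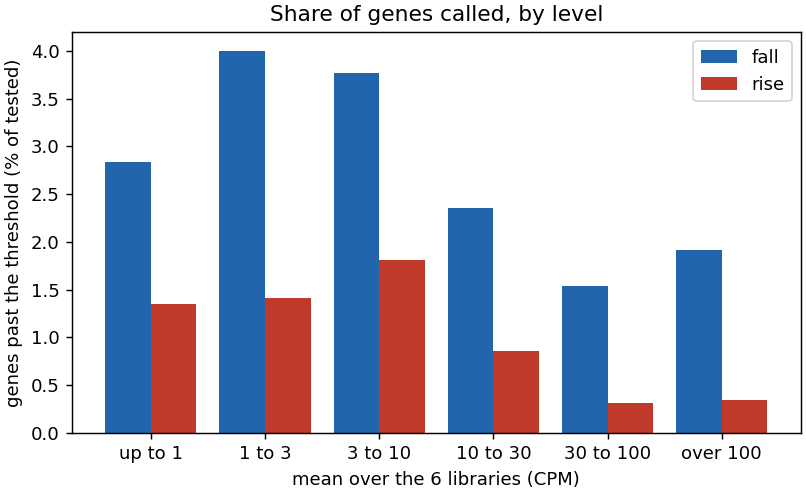
Percent of tested genes that fell or rose (adjusted p under 0.05), by mean level in CPM over the 6 libraries. The bars for falls are taller at each level, from 1.54% to 4%, against 0.308% to 1.81% for rises.

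Taken as a share of each library, the 314 fallen genes held 28070, 28390 and 27360 CPM in HG and 16400, 15440 and 15240 CPM in HG-Res-SIRT7-Inh. The 109 risen genes held 20980, 21950 and 21610 CPM in HG and 31230, 29140 and 30280 CPM with the combined treatment. Most of the second sum sat in 4 very abundant genes above 1000 CPM, with 19820, 20760 and 20440 CPM in HG and 28930, 26880 and 28120 CPM after treatment. The other risen genes together held 1164 to 1193 CPM in HG and 2159 to 2297 CPM after treatment. These sums are a description, because the genes were chosen on the same values.

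Among the called genes, replicate 3 of HG-Res-SIRT7-Inh was most often the extreme library of its group. It was the lowest of the 3 treated libraries in 164 of the 314 fallen genes, against 74 for replicate 1 and 76 for replicate 2. Among the 109 risen genes it was the highest in 54, against 38 and 17. These counts were not made over all tested genes. The median distance of the fallen genes from their HG mean was -0.872, -0.91 and -0.991 (log2) in replicates 1, 2 and 3. That of the risen genes was 0.782, 0.771 and 0.776, with replicate 3 between the others. Over all tested genes it was 0.023, 0.057 and -0.004, so replicate 3 was the lowest there too. In the 3 HG-Res libraries the same medians were -0.25 to -0.224 for the fallen and 0.226 to 0.234 for the risen genes. HG-Res was compared with the same HG means, so these distances share their reference.

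How many genes passed changed strongly when single libraries were left out. Each such fit also held fewer libraries, and the part of this in the counts was not tested. Without HG-Res-SIRT7-Inh replicate 3 there were 1074 genes, of which 460 rose and 614 fell, and 420 of the 423 were among them. Leaving out replicate 1 or 2 of that group gave 282 and 78 genes. Leaving out HG replicate 1, 2 or 3 gave 87, 199 and 126 genes. With replicate 2 of HG and replicate 3 of the treated group both removed, 2558 genes passed, and rises (1323) then outnumbered falls (1235). In the fit over all 9 high-glucose libraries 1387 genes passed, 553 up and 834 down.

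A smaller set did not depend on any 1 library. With each of the 6 libraries left out in turn, 76 genes passed every time in the same direction, 72 that fell and 4 that rose. Of these 75 changed at least 2-fold, 71 down and 4 up, and the median size was 1.51 on the log2 scale. Size and split follow in part from the choice of the set. Direction could not turn, since the replicates of HG and HG-Res-SIRT7-Inh did not overlap in any of the 423 genes. The strictest of the fits, without HG-Res-SIRT7-Inh replicate 2, passed only 78 genes, 74 down and 4 up. The 3 identifiers ENSG00000114812, ENSG00000164761 and ENSG00000107796 kept their call in all 6 of these fits, and ENSG00000054356 in 5. Of the 423 genes, 2 passed in none of them.

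**Figure D4:**
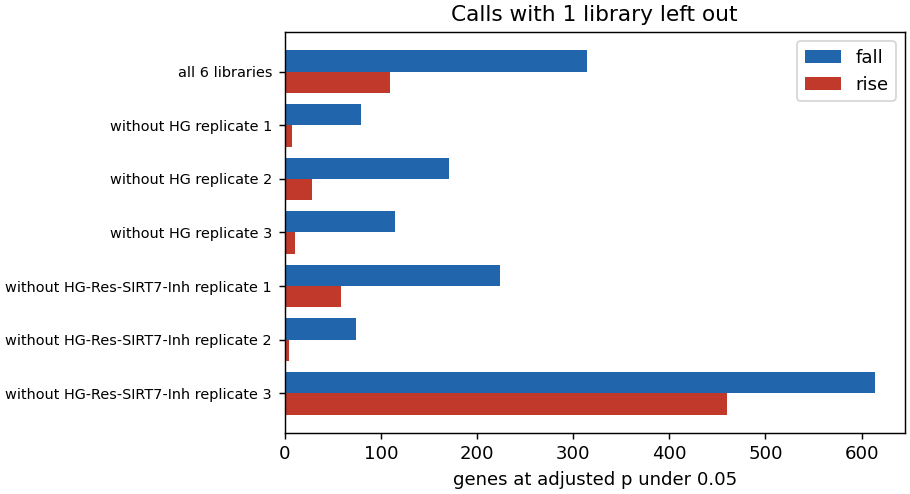
Number of genes that fell or rose at an adjusted p under 0.05 with all 6 libraries and with each left out in turn (x axis, genes). Falls exceed rises in every fit, from 74 and 4 without HG-Res-SIRT7-Inh replicate 2 to 614 and 460 without replicate 3.

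The balance in the authors' deposited table depended on the threshold. It marked 889 of the 20263 genes up and 776 down, where the mark was set exactly at an unadjusted p under 0.05 and a fold over 1.5. By the q-value of the authors' deposited table, 1053 genes (5.2%) passed 0.05, of which 408 were higher and 645 lower. At that threshold falls outnumbered rises, as in the limma calls. Of the 423 limma calls, 414 were also below 0.05 by the q-value of the authors' deposited table. For the identifiers above, the authors' deposited table gave log2 fold changes of -4.48 (ENSG00000114812), -3.12 (ENSG00000164761), 1.63 (ENSG00000107796) and 2.34 (ENSG00000054356). Which test produced them is not stated in the labels or headers.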

How the data were processed

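RNA-seq values came from the authors' deposited tables, each comparing 2 groups of 3 libraries. Per the submitters' processing notes, Trimmomatic and build rn6 were used. Aligner, counter and annotation: not given in the sources used here. Per the file headers the values are TPM, but low deposited values of all genes are multiples of 1 step per library, which scaling by gene length would not give, so they were read as CPM. The deposited log2 fold changes and the deposited p-values and q-values are the authors' own.

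Values were used as deposited, as log2(CPM + 1), in limma 3.58.1 (R 4.3.3) with group means, an intensity trend and Benjamini-Hochberg adjustment over all genes tested. Only the 6 libraries compared entered the fit, since HG-Res varied less (median SD 0.0709) and would lower the error. Printed identifiers are the 2 largest changes per direction among calls with non-overlapping replicates and at least 1 CPM in the higher group. The rule had asked for 15 with a symbol, which no table gave. The comparison and lists were chosen with earlier results of these data known, and the gene lists are not analysed here. Depth was not counted, and no read-count model was run.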

Additional observations from a re-analysis of the deposited data

How the results depend on the processing

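The 4 identifiers, chosen as the largest calls of these data, kept their direction under all 18 alternatives. They kept their call under all except the removal of HG-Res-SIRT7-Inh replicate 2 for ENSG00000054356. Direction could not change with all 9 libraries, the replicate block, no filter or a filter at 1 CPM. The same holds with no intensity trend and at 2-fold or more. These settings leave the log2 change itself as it was. The number of genes (423, of which 109 rose and 314 fell) stayed within 1.5 times under a pseudocount of 0.1, no filter, a filter at 1 CPM, median-of-ratios or TMM scaling and no intensity trend. It was 1387 (553 up, 834 down) with all 9 high-glucose libraries in the fit, 1053 (408 up, 645 down) by the authors' q-values and 145 (18 up, 127 down) at 2-fold or more. With library weights it was 6289 (3533 up, 2756 down). Those weights were estimated gene by gene, an estimator chosen after the default one did not converge. Leaving out 1 library gave 78 to 1074 genes, 4 to 460 up and 74 to 614 down. Without replicate 2 of HG and replicate 3 of HG-Res-SIRT7-Inh together it was 2558 (1323 up, 1235 down). That pair was picked for standing apart. The cause of these shifts was not tested. With the replicate number as a block 962 genes passed (430 up, 532 down). The labels give no shared origin for same-numbered libraries, so the numbers were not taken to pair the samples. Deviations of same-numbered libraries correlated at -0.55, 0.2 and 0.64, which does not settle whether they are paired. Removal of HG-Res-SIRT7-Inh replicate 1 gave 282 genes, just at the limit of 1.5 times, and removal of any other library moved the count further. The planned test on recovered reads was not run, since the rounding of 0.005 CPM is large beside a step of about 0.03 and reads could be recovered only approximately.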
